A study of Mus musculus with 11 samples.

Results

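Gpr83, Rasgrp2 and Nsg2 are 3 genes of the 14604 listed in a table of regulatory T cell (Treg) transcriptomes, of which 13897 were high enough to be tested. They were chosen from these data for the very large fall of their mean value from spleen Tregs to tumor-infiltrating Tregs (TI-Tregs), so that fall is described here without a test. All 3 passed the filter on low values, which asked for an average log2(n + 1) of 0.5 or more.

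Tregs were sorted as live CD4+GITR+CD25+ cells from MC38 tumors and from the spleens of the same animals, and total RNA freed of ribosomal RNA was sequenced. MC38 cells are a mouse line from a colon adenocarcinoma, here implanted to form tumors. Wild-type (WT) libraries came from CD177flox/flox mice, 3 from spleen and 3 from tumor. Knockout (KO) libraries came from CD177flox/flox/FOXP3-CreYFP mice, 3 from spleen and 2 from tumor, so every group carries the floxed Cd177 gene and only KO mice carry the Cre, whose Foxp3 promoter limits the deletion to Foxp3-expressing cells. The labels give no age, strain or tumor size for these mice, and they do not say whether a library holds 1 mouse or a pool, so the p-values below measure the spread between libraries only. Cd177 was not analysed here, and the genotype labels were not checked from it.

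Gpr83 encodes an orphan-type G protein-coupled receptor first found as a glucocorticoid-induced transcript of T cells. It is well known as a transcript of Foxp3-expressing Tregs, and PEN, a peptide cut from the precursor proSAAS, has been reported as a ligand. Rasgrp2 encodes CalDAG-GEFI, a guanine nucleotide exchange factor that responds to calcium and loads the small GTPase Rap1 with GTP. Active Rap1 switches integrins to their adhesive form, a step best known in platelets and also used by T cells when they arrest on vessel walls. Nsg2 encodes a small membrane protein of endosomes that was described in neurons, where the NSG family handles receptor recycling, and its transcript is also found in naive T cells.

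The genes lie on different chromosomes of GRCm38 (mm10), all on the plus strand by GENCODE release M21. Gpr83 (ENSMUSG00000031932.14) spans chr9:14860210-14870789 with 3 annotated transcripts, and none of its exons overlaps another gene. Rasgrp2 (ENSMUSG00000032946.16) spans chr19:6399340-6415216 with 24 transcripts, and its exons overlap those of Gm14965 on the opposite strand. Nsg2 (ENSMUSG00000020297.10) spans chr11:32000463-32059202 with 3 transcripts and no overlapping exon of another gene. Of the 31-base words in their annotated transcripts, 0 of 5089 for Gpr83, 529 of 12755 (4.15%) for Rasgrp2 and 12 of 4121 (0.291%) for Nsg2 also occur in transcripts of other genes. The Gpr83 and Nsg2 values therefore rest on sequence that is nearly all their own. For Rasgrp2, reads from the overlap with Gm14965 cannot be told apart unless the strand was used, which the sources used here do not state.

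The promoter windows of the 3 genes, which were chosen for a large fall in the same direction, are shown, 250 bases before to 50 bases after the RefSeq start site (GRCm38.p6, plus strand), taking the most upstream window of each gene. Capitals mark matches, on either strand, to short motifs that were searched for.

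Gpr83, chr9:14859960-14860259: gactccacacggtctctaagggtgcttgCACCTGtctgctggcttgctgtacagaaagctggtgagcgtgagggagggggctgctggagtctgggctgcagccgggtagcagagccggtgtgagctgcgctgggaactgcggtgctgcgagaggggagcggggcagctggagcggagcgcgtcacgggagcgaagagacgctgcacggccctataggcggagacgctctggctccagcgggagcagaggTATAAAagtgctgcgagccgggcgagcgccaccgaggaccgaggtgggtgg

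Rasgrp2, chr19:6399625-6399924: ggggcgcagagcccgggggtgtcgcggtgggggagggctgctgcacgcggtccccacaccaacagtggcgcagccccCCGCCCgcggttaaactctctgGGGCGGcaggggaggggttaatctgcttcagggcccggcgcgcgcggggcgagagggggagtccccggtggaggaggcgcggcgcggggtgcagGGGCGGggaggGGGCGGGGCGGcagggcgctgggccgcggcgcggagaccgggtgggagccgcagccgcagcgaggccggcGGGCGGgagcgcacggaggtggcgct

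Nsg2, chr11:32000169-32000468: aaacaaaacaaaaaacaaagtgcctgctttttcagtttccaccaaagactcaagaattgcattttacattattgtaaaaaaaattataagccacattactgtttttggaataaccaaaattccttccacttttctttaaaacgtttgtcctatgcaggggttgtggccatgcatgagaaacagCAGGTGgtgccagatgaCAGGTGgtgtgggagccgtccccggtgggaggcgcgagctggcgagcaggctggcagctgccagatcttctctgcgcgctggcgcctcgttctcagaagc

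The windows differ in base composition. The Rasgrp2 window is 80% G or C, that of Gpr83 67% and that of Nsg2 47%, against a median of 52.7% over 32851 RefSeq promoter windows of mouse genes. The capitals in Rasgrp2 are GC boxes (GGGCGG, the core bound by Sp1-type factors), found at 6 positions that overlap in part, and 35.7% of all windows hold at least 1. The capitals in Nsg2 are E boxes (CAGGTG) at bases -67 and -50 from the start site, and Gpr83 has 1 E box at base -222, a motif that 20.2% of all windows hold. Gpr83 also has the letters TATAAA beginning at base -1, which 13.6% of windows hold. The letters searched for TCF/LEF (CTTTGA), BACH/AP-1 (TGACTCA), forkhead (TGTTTAC), the glucocorticoid receptor motif (AGAACA), KLF (GGGTGTG), RUNX (TGTGGTT), ETS (CCGGAAG), NFAT (TGGAAAA) and hypoxia factors (ACGTG) are in none of the 3 printed windows. No motif searched for was shared by all 3 windows.

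The authors deposited log2(n + 1), where n is an estimated count summed by gene symbol, and it is not stated whether n was rescaled. Values are therefore compared between libraries within a gene, and levels of different genes are not ranked. In spleen WT libraries the log2(n + 1) of Gpr83 was 4.94, 5.35 and 4.88, and in spleen KO libraries 5.23, 5.32 and 4.64. In tumor WT libraries it was 0.93, 0.66 and 0.34, and in tumor KO libraries 1.16 and 0.60. Every tumor library lay below every spleen library, as in 28.4% of all tested genes, with 3.48 between the lowest spleen and the highest tumor value. A gene chosen for so large a fall would hardly show overlap. The spleen mean was 5.06 ± 0.28 (SD, n = 6) and the tumor mean 0.74 ± 0.32 (SD, n = 5), a difference of -4.32 on the log2(n + 1) scale. On the linear scale the mean n was 32.9 in spleen and 0.70 in tumor. The receptor transcript was thus listed in each tumor library, but at an n of 0.26 to 1.24, close to the bottom of the scale, where adding 1 before taking the logarithm shortens the difference.

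Rasgrp2, the Rap1 exchange factor, had a log2(n + 1) of 7.71, 7.51 and 7.15 in spleen WT libraries and of 7.59, 7.53 and 7.68 in spleen KO libraries. In tumor WT libraries it was 3.71, 3.68 and 2.60, and in tumor KO libraries 3.63 and 3.08. The tissues did not overlap, and the gap between the lowest spleen and the highest tumor library was 3.44. The means were 7.53 ± 0.20 (SD, n = 6) and 3.34 ± 0.49 (SD, n = 5), a difference of -4.19. Mean n was 184.7 in spleen and 9.55 in tumor, 19.4-fold lower, so unlike Gpr83 the tumor level of Rasgrp2 was well above 1.

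Nsg2, the endosomal membrane protein, had a log2(n + 1) of 6.38, 6.37 and 6.27 in spleen WT libraries and of 6.49, 6.22 and 6.31 in spleen KO libraries. In tumor WT libraries it was 2.88, 1.10 and 1.83, and in tumor KO libraries 2.53 and 1.50. The tissues were again apart, by 3.34. The means were 6.34 ± 0.10 (SD, n = 6) and 1.97 ± 0.73 (SD, n = 5), a difference of -4.37, and mean n was 80.2 in spleen and 3.33 in tumor, 24.1-fold lower. Nsg2 was the most even of the 3 in spleen and the most uneven in tumor.

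**Figure D1:**
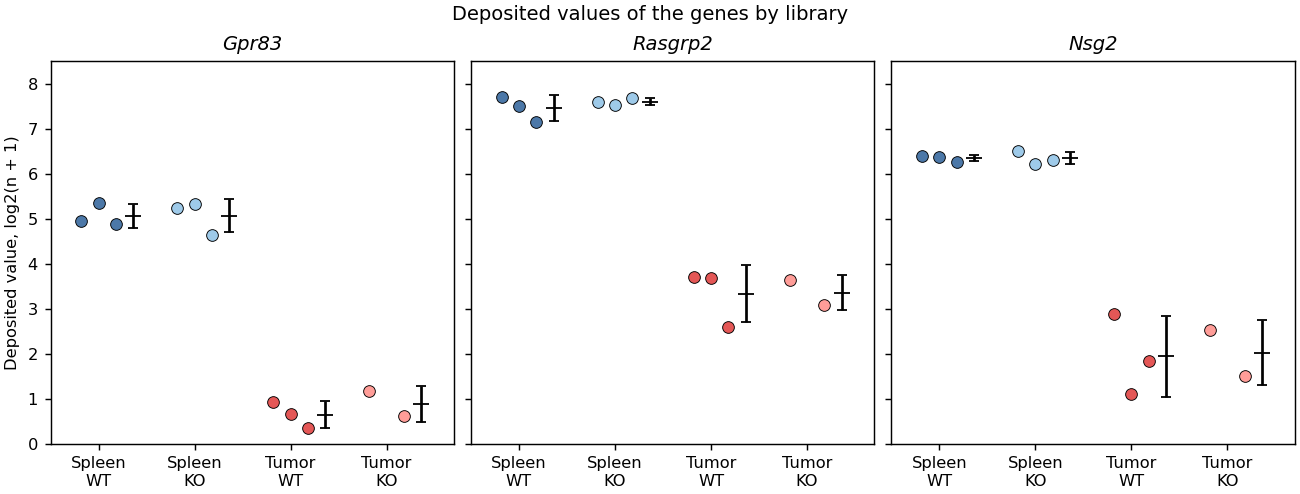
Deposited log2(n + 1) of Gpr83, Rasgrp2 and Nsg2 (vertical axis) in each library, by tissue and genotype. Points are libraries, black dashes and bars are group means ± SD. In every panel all 5 tumor libraries lie below all 6 spleen libraries, with gaps of 3.48, 3.44 and 3.34.

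Among the 13897 tested genes these falls were the 3rd (Nsg2), 4th (Gpr83) and 5th (Rasgrp2) largest, which restates how the genes were chosen. Just ahead of them stood Dtx1, a ubiquitin ligase of the Notch pathway, at -5.56, and Gm4956 at -5.15. Just behind stood Aff3 at -3.99, Gm17072 at -3.96 and Art2b at -3.91. Over all tested genes limma called 35.9% lower and 43.1% higher in tumor (78.9% in either direction), and the median difference was 0.08.

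**Figure D2:**
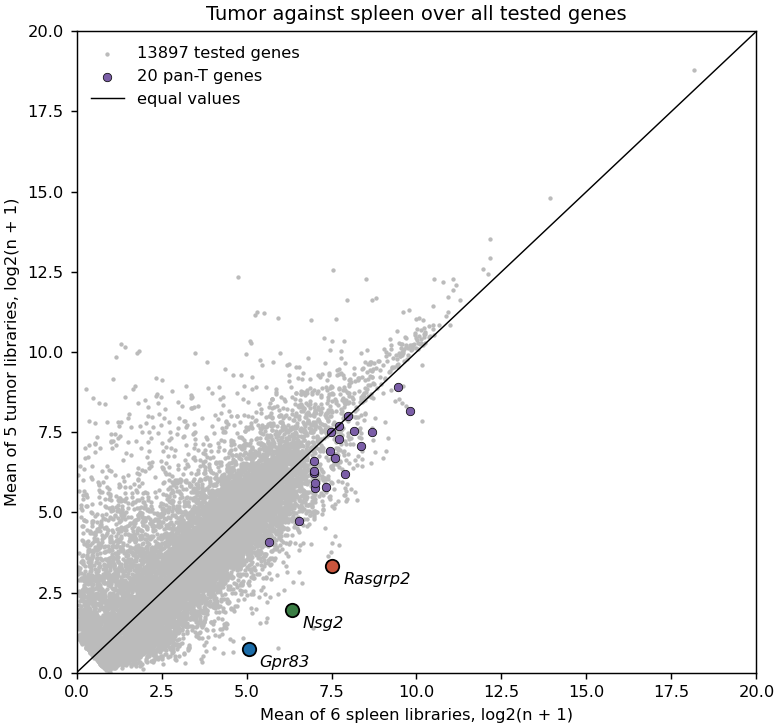
Mean log2(n + 1) of 5 tumor libraries (vertical axis) against that of 6 spleen libraries (horizontal axis), 1 grey point per tested gene (13897), with the 20 pan-T genes in purple and equal values on the black line. Gpr83, Rasgrp2 and Nsg2 lie far below the line, at differences of -4.32, -4.19 and -4.37, and the pan-T genes lie on it or below.

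The spread within a tissue is a measure that the choice of genes did not use. In spleen the SD of Gpr83 (0.28) was larger than that of 95.3% of 2289 genes within 0.5 of its mean value, while that of Nsg2 (0.10) was larger than that of 41.4% of 958 such genes. In tumor the SD of Nsg2 (0.73) exceeded that of 93.8% of 1619 genes of like value, that of Rasgrp2 (0.49) exceeded 90.0% of 2352, and that of Gpr83 (0.32) exceeded 71.1% of 1857. The median SD of genes of like value was 0.11 to 0.12 in spleen and 0.21 to 0.31 in tumor for the 3 genes. Among tumor libraries Nsg2 was highest in WT replicate 1 (2.88) and KO replicate 1 (2.53), and Gpr83 was highest in the same 2 libraries (0.93 and 1.16). WT replicate 1 was also the highest for Rasgrp2 (3.71), next to WT replicate 2 (3.68), which was lowest for Nsg2 (1.10). The mean of 20 T cell genes described below (pan-T mean) was highest in these 2 libraries too, at 7.22 in WT replicate 1 and 7.04 in KO replicate 1. After it was subtracted from each library, the tumor SD of Nsg2 was 0.40, that of Rasgrp2 0.43 and that of Gpr83 0.25.

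The libraries were checked for the cells they are labelled as. Foxp3, the lineage factor of Tregs, was 5.98 to 6.75 in spleen and 4.72 to 6.12 in tumor libraries, and Cd4 was 7.52 to 7.91 and 7.07 to 7.73. Markers of other cells moved with the tissue as well, beside 43.1% of all tested genes called higher and 35.9% lower in tumor. Summed over its 16 listed genes, n of the myeloid list was 446.9 to 911.7 in spleen and 20167 to 27125 in tumor libraries, and all 16 were called higher. The 6 listed fibroblast genes summed to 7.96 to 19.7 and 1032 to 2353, also all higher. The 10 listed CD8 T and NK genes summed to 44.05 to 90.9 and 138.6 to 463.7 (6 higher, 1 lower), and the 4 listed tumor epithelial genes to 9.11 to 15.2 and 17.7 to 30.4 (1 higher, 1 lower). The 5 listed erythroid genes summed to 131.2 to 1120 in spleen and 7.32 to 84.7 in tumor, all lower, and the 6 listed B-cell genes to 19.49 to 64.8 and 11.8 to 24.8 (4 lower, but 0 lower and 1 higher when libraries were centred on their pan-T mean, the mean of the T cell genes described below). Over all 13897 tested genes that centring gave 951 lower and 10018 higher. The marker genes counted above are those with values here, of 18 myeloid, 9 fibroblast, 6 tumor epithelial, 8 erythroid and 9 B-cell markers sought. None of these marker genes was at 0 in a library. The part of these other cells in the values of Gpr83, Rasgrp2 and Nsg2 was not tested. In bulk libraries, fewer cells that express a gene and less RNA of it per cell cannot be told apart.

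Rasgrp2 is also a platelet gene and Nsg2 a neuronal one, so the markers of those cells are given beside them. Of 9 tested platelet markers 6 were called lower and 2 higher in tumor (median -0.59). Over all tested genes 35.9% were lower and 43.1% higher. With pan-T centring 1 marker was lower and 2 were higher (median 0.32), and over all 13897 tested genes 951 were lower and 10018 higher. Itga2b, the platelet integrin chain, was 2.85 to 4.03 in spleen and 1.31 to 1.73 in tumor libraries, and Gp9 was 1.69 to 2.16 and 0.27 to 1.21. The summed n of the platelet list was nevertheless higher in tumor (254.3 to 645.8, against 53.1 to 88.7 in spleen), which rested on Pf4, a chemokine of platelets and macrophages, at 1.97 to 2.71 in spleen and 7.83 to 9.25 in tumor. Of 8 neuronal markers sought, 2 had values, Tubb3 and Map2. Both were low in spleen, where they summed to an n of 1.22 to 4.45 beside an n of 73.7 to 89.2 for Nsg2. In tumor, where Nsg2 was low, they summed to 16.9 to 100.9, most of it Tubb3 (3.79 to 6.64, against 0.06 to 0.39 in spleen), while Map2 did not pass the test.

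Pan-T genes, 20 genes of the T cell receptor complex, its signalling proteins and the surface antigens shared by T cells, were compared in the same libraries. By limma 17 were called lower in tumor, 0 higher and 3 in neither direction, beside 35.9% lower and 43.1% higher over all tested genes. Their median difference was -0.83 against 0.08 over all tested genes. The lower ones were led by Bcl11b at -1.83 ± 0.18 (SE, adjusted p = 9.4e-07), a transcription factor of T cell identity. The next were the adaptor Lat at -1.69 ± 0.16 (adjusted p = 5.6e-07), Trbc2, a constant segment of the receptor beta chain, at -1.64 ± 0.17 (adjusted p = 1.6e-06) and the adaptor Trat1 at -1.60 ± 0.29 (adjusted p = 0.00022). Trbc2 has a near copy, Trbc1, between which reads could be split. Cd3g, Cd2 and Thy1 did not pass the test, at -0.03, 0.01 and 0.02. Bcl11b ranked 340th among the falls of all tested genes. The pan-T mean was 7.60 to 7.70 in spleen libraries and 6.38 to 7.22 in tumor libraries.

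Gpr83 minus the pan-T mean of its own library lay between -3.00 and -2.29 in spleen libraries. In tumor libraries it lay between -6.30 and -5.77. The difference between the tissue means was -3.42, which is 79.1% of the difference without the pan-T mean. For Rasgrp2 the distance was -0.52 to 0.10 in spleen and -4.00 to -2.80 in tumor, a difference of -3.28 (78.4%). For Nsg2 it was -1.40 to -1.20 in spleen and -5.38 to -4.34 in tumor, a difference of -3.47 (79.3%). The same pan-T shift was taken from 3 falls chosen to be large and of like size, so the 3 shares were bound to be alike. The tumor libraries lay below the spleen libraries for each gene, as they did for 4.59% of all tested genes after the same subtraction, and the choice of genes made this likely. Against Cd3e alone, the difference was -3.70 for Gpr83, -3.57 for Rasgrp2 and -3.75 for Nsg2. Against the mean of 12 Treg identity genes it was -4.23, -4.10 and -4.28. Those 12 genes did not move together: 5 were called lower and 3 higher, with Foxp3 at -0.85 and Capg at 2.69.

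The same comparison can be made without logarithms. Per 1000 units of n summed over the pan-T genes, Gpr83 had 4.79 to 7.92 in spleen and 0.10 to 0.37 in tumor libraries, with means of 6.53 and 0.24. Rasgrp2 had 27.2 to 43.5 and 1.91 to 5.06, with means 10.98-fold apart. Nsg2 had 14.6 to 17.3 and 0.49 to 1.59, with means 15.0-fold apart. The pan-T sum itself was 4777 to 5219 in spleen and 2178 to 3995 in tumor, 1.73-fold apart.

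**Figure D3:**
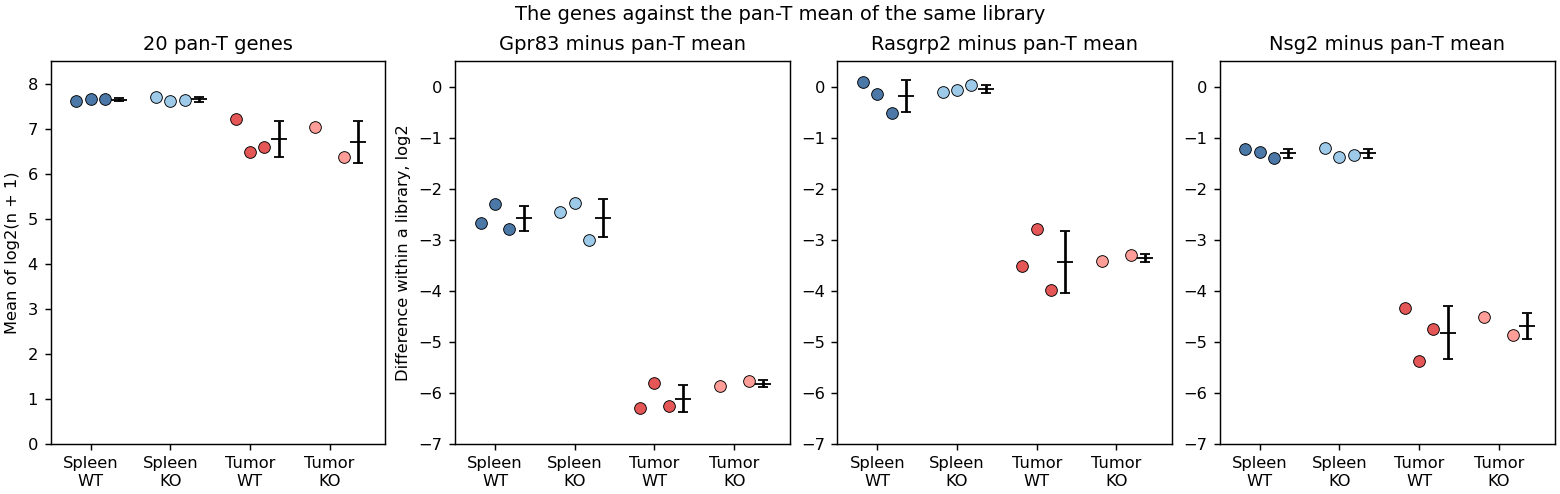
Left panel, mean log2(n + 1) of the 20 pan-T genes per library (vertical axis); other panels, log2(n + 1) of Gpr83, Rasgrp2 and Nsg2 minus that mean in the same library, by tissue and genotype. Points are libraries, dashes and bars are group means ± SD. The pan-T mean is 7.60 to 7.70 in spleen and 6.38 to 7.22 in tumor, and after it is subtracted the tumor libraries still lie below the spleen libraries by -3.42, -3.28 and -3.47 on average.

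The comparison of KO with WT mice asks whether these transcripts differ by genotype, and it was not used to choose them. Only KO mice carry the Cre, so losing Cd177 and carrying the Cre cannot be told apart. In spleen the KO minus WT difference was 0.01 ± 0.24 (SE) for Gpr83, 0.14 ± 0.27 for Rasgrp2 and 0.00 ± 0.38 for Nsg2 (limma, adjusted p = 0.9997 for each, 3 against 3 libraries). In tumor it was 0.24 ± 0.26 for Gpr83, 0.03 ± 0.31 for Rasgrp2 and 0.08 ± 0.42 for Nsg2 (limma, adjusted p = 0.9997 for each, 2 against 3 libraries). None of the 6 differences exceeded its standard error. Without spleen WT replicate 3, whose Rasgrp2 of 7.15 stood apart from the other spleen libraries, the spleen difference of Rasgrp2 was -0.010. For each gene the values of KO and WT libraries overlapped in spleen, and in tumor KO and WT overlapped as well.

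Within WT mice the tumor minus spleen difference was -4.42 for Gpr83, -4.13 for Rasgrp2 and -4.40 for Nsg2. Within KO mice it was -4.18, -4.24 and -4.33. The difference between those differences was 0.24 ± 0.35 for Gpr83, -0.12 ± 0.41 for Rasgrp2 and 0.08 ± 0.57 for Nsg2 (limma interaction, adjusted p = 0.9997 for each). A p that misses the threshold does not show that the genotypes were alike. The standard errors were 0.26 to 0.42 in tumor and 0.35 to 0.57 for the interaction. They leave room for differences larger than the estimates, in either direction. Over all 13897 tested genes limma called 0% in spleen, 0.0072% in tumor and 0% for the interaction, with 281, 634 and 383 genes at an unadjusted p under 0.05. The gene called in tumor was Gm45837, lower in KO by -1.87 ± 0.21 (adjusted p = 0.040), a gene model whose exons overlap those of Arap1 and Pde2a on the same strand. No gene was called in tumor with quantile normalization, median centring, equal library totals, pan-T centring, a pseudocount of 5 or no filter, and 0 to 2 genes were called with 1 library left out.

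**Figure D4:**
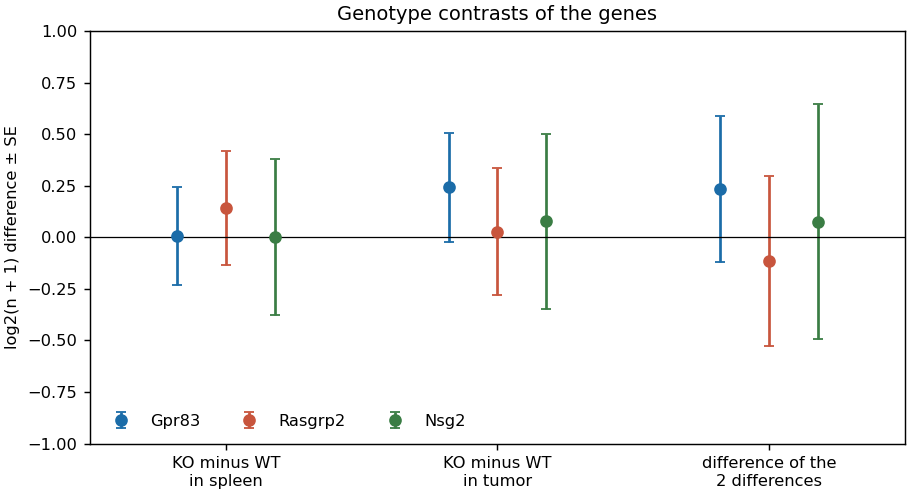
Genotype contrasts of Gpr83, Rasgrp2 and Nsg2 on the log2(n + 1) scale (vertical axis), as limma difference ± SE, for KO minus WT in spleen, KO minus WT in tumor, and the difference of the 2 differences. All 9 points lie between -0.12 and 0.24, and every bar crosses 0.

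Of the other 3 RASGRP genes 1 fell, 1 rose and 1 did not pass the test. Over all tested genes 35.9% were called lower and 43.1% higher. Rasgrp1, the diacylglycerol-bound Ras exchange factor downstream of the T cell receptor, fell from 6.54 ± 0.07 (SD, n = 6) to 5.16 ± 0.41 (SD, n = 5), by -1.38 ± 0.15 (SE, limma adjusted p = 2.0e-06). Rasgrp3, better known in B cells, was 1.07 and 0.80 and did not pass the test (-0.27, adjusted p = 0.16). By limma Rasgrp3 was called lower with median centring (-0.50, adjusted p = 0.023) and equal library totals (-0.53, adjusted p = 0.012), and higher with pan-T centring (0.63, adjusted p = 0.0067). Rasgrp4, a myeloid and mast cell member, rose from 1.95 to 3.85, by 1.90 ± 0.22 (adjusted p = 4.0e-06), in the libraries in which the myeloid markers were high.

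Rap1 and the proteins that switch it or carry its signal to integrins were read next. Of 29 tested genes 14 were called higher and 11 lower, with a median of 0.24, beside 43.1% higher and 35.9% lower over all tested genes. With equal library totals 6 were higher and 16 lower (median -0.31), and with pan-T centring 19 were higher and 3 lower (median 1.14). Over all 13897 tested genes, 3286 were higher and 7817 lower with equal library totals, and 10018 and 951 with pan-T centring. The counts of the lists below stand beside the same shifts. Rapgef4 (Epac2), a Rap exchange factor activated by cyclic AMP, fell from 3.82 ± 0.31 to 0.66 ± 0.45 (SD), by -3.15 ± 0.21 (adjusted p = 1.7e-08), the nearest of these genes to Rasgrp2. Skap1, an adaptor that couples the T cell receptor to integrins, fell by -1.93 ± 0.15 (adjusted p = 1.0e-07), and Rapgef6, another Rap exchange factor, by -1.72 ± 0.11 (adjusted p = 9.9e-09). The small GTPase Rap2a rose from 1.84 to 4.95 (3.11 ± 0.12, adjusted p = 1.4e-10). Rap1b, the main substrate of CalDAG-GEFI in platelets, was 7.41 in spleen and 8.61 in tumor (it was picked after its values were seen).

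Of 15 regulators of Ras 7 were called higher and 6 lower, with a median of -0.02, beside 43.1% higher and 35.9% lower over all tested genes. With equal library totals 4 were higher and 8 lower (median -0.64), and with pan-T centring 10 were higher and 2 lower (median 0.88). Rasal3 and Rasa1, which turn Ras off, fell by -2.06 ± 0.15 and -1.57 ± 0.11 (adjusted p = 5.7e-08 and 2.8e-08). Spred1, an inhibitor of the Ras pathway, rose by 2.35 ± 0.12 and the GTPase Rras by 2.24 ± 0.17 (adjusted p = 1.7e-09 and 9.0e-08).

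Diacylglycerol, the lipid that recruits Rasgrp1 and protein kinase C, is made by phospholipase C and removed by diacylglycerol kinases. Of 15 genes of this group 12 fell and 2 rose, with a median of -0.91, beside 35.9% lower and 43.1% higher over all tested genes. With pan-T centring 4 were higher and 5 lower. Dgka, the kinase that removes diacylglycerol in resting T cells, fell from 8.26 ± 0.05 to 5.39 ± 0.44 (SD), by -2.87 ± 0.16 (adjusted p = 3.5e-09). Prkcq, protein kinase C theta of the T cell synapse, fell by -2.79 ± 0.15 (adjusted p = 2.5e-09) and Prkd2 by -2.22 ± 0.11 (adjusted p = 1.2e-09). Plcg2, the phospholipase C of B and myeloid cells, rose by 3.07 ± 0.29 (adjusted p = 6.1e-07).

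Gpr83 was set beside 20 other G protein-coupled receptors of lymphocytes, of which 9 fell and 7 rose (median 0.08), against 35.9% and 43.1% of all tested genes. With equal library totals 12 were lower and 4 higher (median -0.51), and with pan-T centring 4 were lower and 12 higher (median 0.99). S1pr1, which guides exit from lymphoid tissue, had the largest fall, from 6.57 ± 0.26 to 3.98 ± 0.60 (SD), by -2.59 ± 0.23 (adjusted p = 3.4e-07). The leukotriene receptor Cysltr1 rose by 3.93 ± 0.12 (adjusted p = 3.0e-11), the UDP-glucose receptor P2ry14 by 2.88 ± 0.17 (adjusted p = 5.8e-09) and the proton-sensing Gpr65 by 1.60 ± 0.13 (adjusted p = 1.1e-07).

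The enzymes that cut proSAAS and its other reported receptor were read beside Gpr83. The proprotein convertase Pcsk1 rose from 0.22 to 3.09 (2.87 ± 0.16, adjusted p = 4.2e-09), the carboxypeptidase Cpe from 1.26 to 4.70 (3.44 ± 0.25, adjusted p = 4.1e-08) and Gpr171, reported to bind the proSAAS peptide BigLEN, from 3.56 to 5.43 (1.87 ± 0.08, adjusted p = 6.3e-10). Pcsk2 fell from 1.89 to 0.75 (-1.14 ± 0.11, adjusted p = 6.6e-07), a call lost with pan-T centring (-0.23, adjusted p = 0.23). The precursor gene was on the list but had no values here. As Gpr83 was first described as a glucocorticoid-induced gene, 13 such genes were read as well. Of these 8 rose and 1 fell (median 0.72), beside 43.1% higher and 35.9% lower over all tested genes. Sgk1 (2.68 ± 0.12, adjusted p = 6.5e-10), Zfp36 (2.17 ± 0.21, adjusted p = 5.9e-07), Dusp1 (1.53 ± 0.18, adjusted p = 4.1e-06) and Cxcr4 (1.47 ± 0.23, adjusted p = 5.9e-05) rose, although with equal library totals 4 of the 13 were higher and 5 lower.

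Nsg1, the only other tested gene of the NSG family, was low in both tissues, at 1.27 ± 0.14 in spleen and 0.86 ± 0.41 (SD) in tumor, and fell by -0.41 ± 0.17 (SE, adjusted p = 0.035), a direction that reversed to 0.49 with pan-T centring. Its call also missed the threshold without any one of 6 libraries (spleen KO replicates 1, 2 and 3, tumor KO replicate 2, and tumor WT replicates 1 and 3), at differences of -0.42 to -0.32.

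Lists of Treg state were read beside the 3 genes, and beside the 35.9% lower and 43.1% higher over all tested genes. Of 12 Treg identity genes 5 fell and 3 rose, with a median of -0.26. With pan-T centring 8 were higher and 1 lower (median 0.64), and with equal library totals 2 were higher and 8 lower (median -0.88). Izumo1r, the folate receptor family protein FR4 of Tregs, fell by -2.26 ± 0.17 (adjusted p = 7.5e-08) and the Ikaros family factor Ikzf2 (Helios) by -1.09 ± 0.17 (adjusted p = 6.4e-05; -0.18 and adjusted p = 0.33 with pan-T centring), while Capg rose by 2.69 ± 0.09 (adjusted p = 8.3e-11) and Tnfrsf18 (GITR), a marker of the sort, by 1.08 ± 0.12 (adjusted p = 2.1e-06). Of 16 genes of resting T cells 13 fell and 2 rose, Ccr7 by 0.38 and Igfbp4 by 0.61, with a median of -1.86. With pan-T centring 9 of the 16 were lower and 2 higher (median -0.96). Tcf7 (-3.72 ± 0.19, adjusted p = 1.9e-09), Bach2 (-3.53 ± 0.13, adjusted p = 1.2e-10) and Lef1 (-3.40 ± 0.17, adjusted p = 1.6e-09), transcription factors of quiescent and naive T cells, were among those nearest to the falls of Gpr83, Rasgrp2 and Nsg2. All 15 listed genes of activated Tregs rose, with a median of 2.46. With quantile normalization, median centring or equal library totals 14 of the 15 were called higher and 0 lower. The largest rises were those of Gzmb (5.43 ± 0.25, adjusted p = 8.2e-10), Havcr2 (4.91 ± 0.16, adjusted p = 5.6e-11), Tnfrsf9 (3.33 ± 0.13, adjusted p = 1.6e-10) and Il10 (2.95 ± 0.28, adjusted p = 7.0e-07). In the tumor libraries the summed n of the myeloid and of the CD8 T and NK markers was higher too. The part of other cells in these rises, and in that of Capg, was not tested.

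**Figure D5:**
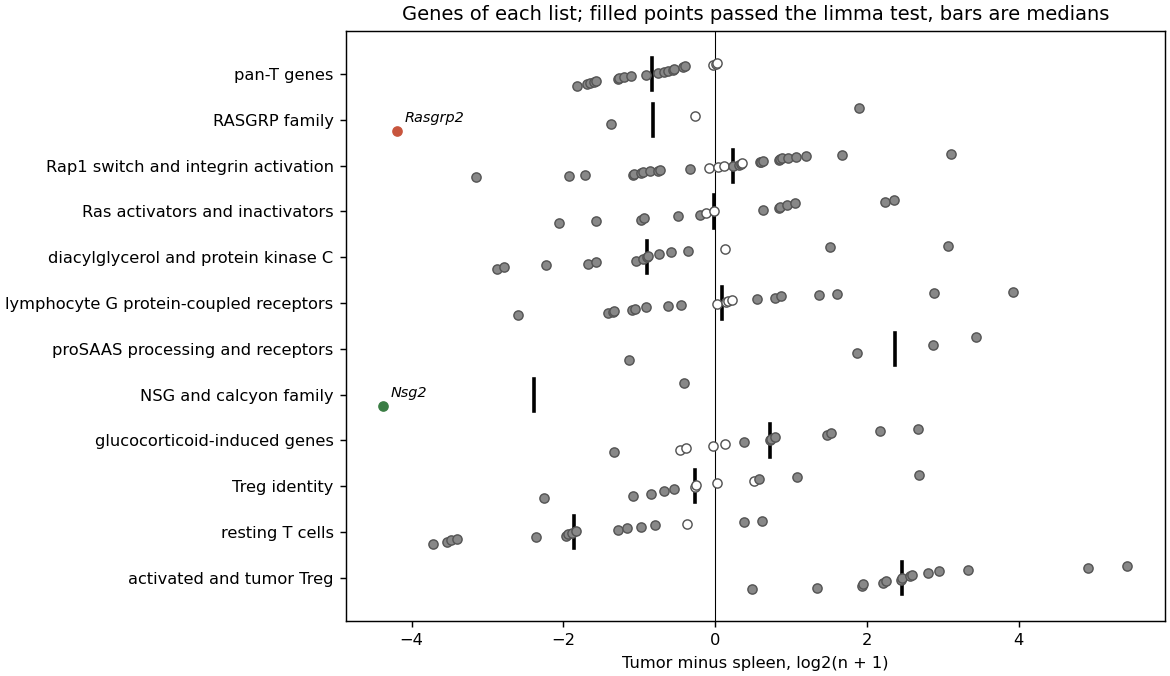
Tumor minus spleen difference on the log2(n + 1) scale (horizontal axis) of every tested gene of 12 lists (rows), filled where limma called the gene, with the list median as a black bar. Rasgrp2 and Nsg2 lie to the left of every other point, as their choice made likely. Several resting T cell genes come next, and the activated Treg genes lie to the right.

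The genes most like each member were found by centring every tested gene on its spleen mean and taking the root mean square (RMS) difference over the 11 libraries, without a test. The 3 genes were near one another by this measure: Rasgrp2 was the gene nearest to Gpr83 (RMS difference 0.31), Nsg2 was in place 4 (0.40), and Gpr83 was in place 2 for both Rasgrp2 (0.31) and Nsg2 (0.40). Art2b, an ADP-ribosyltransferase on the surface of T cells, was nearest to Rasgrp2 (0.27) and in place 2 for Gpr83 (0.35). Aff3, a nuclear factor of lymphoid cells, was nearest to Nsg2 (0.37), in place 3 for Rasgrp2 (0.35) and in place 5 for Gpr83 (0.41). The gene model Gm17072 was in place 3 for Gpr83 (0.38) and Nsg2 (0.46) and in place 4 for Rasgrp2 (0.35). Ripor2, an inhibitor of RhoA in T cells, was in place 5 for Rasgrp2 (0.41), with means of 7.49 and 3.76, and Trbv12-1, a variable segment of the receptor beta chain, was in place 4 for Nsg2 (0.48), with means of 5.40 and 1.55. Art2b and Trbv12-1 belong to families with close copies, so reads could be split among relatives. Genes with falls of like size are near by this measure, so the choice of the 3 genes also set much of their likeness.

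The tested genes on either side of each gene were listed, a set chosen after the data had been seen. The 3 nearest on each side were taken. Next to Gpr83, Izumo1r, on the minus strand, has its near edge 15025 bases beyond it and fell by -2.26. Mre11a, 23087 bases before Gpr83, fell by -0.45, while Fut4 rose by 0.86. Med17 fell by -0.18, and Panx1 (-0.13) and Ankrd49 (-0.01) did not pass the test. Around Rasgrp2, Pygm, the muscle glycogen phosphorylase gene 881 bases upstream, fell by -1.09 from a mean of 2.07, the splicing factor gene Sf1 by -0.75, the kinase gene Map4k2 by -1.74, Nrxn2 by -0.41 and Ccdc88b by -0.41, while Rps6ka4 rose by 1.16. Around Nsg2 only the cytokine receptor gene Il9r fell (-1.42), while Cpeb4, Bod1, Stc2, Snrnp25 and Rhbdf1 rose by 0.78, 0.53, 0.84, 1.11 and 2.47. With pan-T centring Mre11a (0.45), Med17 (0.72), Sf1 (0.16), Nrxn2 (0.49) and Ccdc88b (0.49) turned to the other direction. With equal library totals Cpeb4, Bod1 and Stc2 were no longer called.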

How the data were processed

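Tregs from spleens and MC38 tumors were profiled by RNA sequencing in 11 libraries, whose labels give tissue and genotype. From rRNA-depleted libraries the authors pseudoaligned reads to mm10 with kallisto (version and annotation: not given in the sources used here), passed the estimated counts through sleuth 0.30.0, summed them by gene symbol and deposited log2(n + 1) values. Totals of n per library were 712832 to 844331 in spleen and 1103159 to 1304548 in tumor. The paper gives an approximate read depth per library, which is far above these totals of n. Since n may have been rescaled, the reads behind a value are unknown and no counting interval can be given. Precision is limited by the spread between libraries.

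The deposited log2 values were used without further normalization. Genes with a mean of at least 0.5 were kept (13897 of 14604). limma 3.58.1 in R 4.3.3 (mean-variance trend, Benjamini-Hochberg over all tested genes, calls at an adjusted p under 0.05) compared 5 tumor with 6 spleen libraries, genotypes pooled, and, in a fit of the 4 group means, KO with WT in each tissue and their interaction. The paper's own test, an unpaired two-group test with Bonferroni correction, was replaced by limma, which shares the spread over genes. On this scale the change of a low gene is understated. The fit was tested on simulated data.

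The 3 genes and all gene lists were chosen with earlier results of these data known. Genes named are the 3, all tested members of the RASGRP, NSG and proSAAS lists, the 4 genes of each other list with the largest absolute tumor minus spleen difference, the 5 genes most like each of the 3, and any gene called in a genotype comparison with 5 or fewer calls. Genome neighbours, Rap1b, Ccr7, Igfbp4, markers used as checks and pan-T genes that missed the threshold were added after their values were seen. One gene that this rule names is not reported here. Positions came from GENCODE release M21 and promoter windows from RefSeq (GRCm38.p6). Alternatives were tried for the scaling (pan-T centring, quantile normalization, median centring, equal library totals), the pseudocount (0.1 or 5), the filter, the variance model, the covariates, the replicate block, the reference genes and the libraries.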

Additional observations from a re-analysis of the deposited data

Results flagged for a closer look

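Rasgrp2 in spleen WT replicate 3 was 7.15, below the other 5 spleen libraries at 7.51 to 7.71, and was the member value that stood apart from its tissue by Dixon's test. The myeloid, B-cell and platelet sums of that library lay within the range of the other spleen libraries.

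The summed n of the neuronal markers in spleen KO replicate 2 was 1.15 as log2(n + 1), below the other spleen libraries at 1.96 to 2.45. Nsg2 in that library was 6.22, the lowest of the spleen values. In all, 30 groups of libraries were examined for such values and 2 stood apart, where chance gives about 1.5.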

How the results depend on the processing

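Gpr83, Rasgrp2 and Nsg2 were lower in tumor in every fit run, also with each library left out (-4.43 to -4.22, -4.28 to -4.00 and -4.60 to -4.16). Their differences moved by more than the spread between libraries, in the order Gpr83, Rasgrp2, Nsg2, with pan-T centring (-3.42, -3.28, -3.47) and a pseudocount of 5 (-2.72, -3.72, -3.39), for Gpr83 with a pseudocount of 0.1 (-5.48), and for Rasgrp2 with quantile normalization (-4.70) and equal library totals (-4.75). Relative to the pan-T mean they moved with a pseudocount of 5 (-1.85, -2.86, -2.53) and the Treg identity mean (-4.23, -4.10, -4.28), for Gpr83 and Nsg2 with a pseudocount of 0.1 (-4.56, -3.88), quantile normalization (-2.89, -3.12) and Cd3e (-3.70, -3.75), and for Gpr83 with equal library totals (-3.09).

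No genotype contrast of the 3 genes was called in any fit, but their signs were not stable. In spleen the KO minus WT difference was -0.0029 for Gpr83 and -0.019 for Nsg2 with quantile normalization, and -0.0029 and -0.0035 for Nsg2 with median and pan-T centring. With a library left out it ranged from -0.12 to 0.22, -0.010 to 0.27 and -0.074 to 0.062 in spleen, from -0.037 to 0.52, -0.34 to 0.30 and -0.43 to 0.59 in tumor, and for the interaction from -0.044 to 0.52, -0.48 to 0.16 and -0.44 to 0.59.

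Over all genes, 10971 were called between tissues and 4556 with an absolute difference of at least 1. The share of calls that were higher in tumor was 54.5% as deposited, 42.1% with quantile normalization, 43.4% with median centring, 29.6% with equal totals and 91.3% with pan-T centring, as the median difference over genes went from 0.08 to -0.16, -0.14, -0.43 and 0.99. In tumor KO against WT the count of 1 became 0 with any of these scalings, a pseudocount of 5 or no filter, and 0 to 2 with a library left out; the interaction count of 0 became 1 with a pseudocount of 0.1 and 0 to 1 with a library left out.

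Deviations of same-numbered spleen and tumor libraries from their group means had correlations of -0.13 to 0.04. With 2 or 3 libraries per group, this check cannot show whether equal numbers mean the same mouse. The numbers were not taken as pairs in the main fit. With the replicate block 10987 genes were called between tissues, and no call on the 3 genes changed. Among 67 other single genes 52 kept direction and call in every fit that tested them and 10 reversed in at least 1. With pan-T centring these were Rasgrp3 (0.63), Nsg1 (0.49), Mre11a (0.45), Ankrd49 (0.89), Panx1 (0.77), Med17 (0.72), Sf1 (0.16), Nrxn2 (0.49) and Ccdc88b (0.49), and with equal totals Bod1 (-0.042). Ankrd49 also ranged from -0.057 to 0.052 with a library left out. The cause of these shifts was not tested.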
